A study of Mus musculus with 16 samples.

Results

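Imprinted genes are genes read mainly from the copy inherited from 1 parent. The 34 genes described here were listed by name, as established imprinted genes of the mouse, with earlier results of these data known. Of them, 29 had a row in the deposited table of 30286 gene symbols. By textbook knowledge 20 of the 34 are read from the paternal copy and 12 from the maternal copy, and for Grb10 and Gnas the copy depends on the tissue. The table held 18 of the paternally expressed genes, 9 of the maternally expressed genes, and both tissue-dependent genes. The 5 without a row were Meg3, Rian, Mirg, Kcnq1ot1 and Airn, which are long non-coding RNAs and are not analysed here. The table held 97.4% of the protein-coding genes of the GENCODE M21 annotation and 2.26% of its long non-coding genes.

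At embryonic day 12 the facial prominences, the buds of the future face, were taken from C57BL/6 mice and split by surgery into ectoderm and mesenchyme. The groups were KO ectoderm, wild-type (WT) ectoderm, KO mesenchyme and WT mesenchyme, where KO embryos carried a knockout of both copies of Esrp1, a splicing regulator of epithelial cells. No other allele or agent is named, and the KO is not stated to be limited to a tissue. Each group had 4 libraries, each from a pool of 6 to 7 embryos, but the deposited table gives 1 value per group. Values are in TPM, a share of all transcripts that is corrected for transcript length and keeps no record of depth. No difference below therefore has a replicate check, and no p-value or standard deviation can be given. "Higher" and "lower" describe the deposited values at a fixed size, which is 1.5-fold between genotypes and 2-fold between layers, on TPM plus 1. A gene counted as measured in a comparison when the groups set against each other averaged 1 TPM or more.

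Imprinted genes often sit in clusters. In many of these, methylation laid down in the egg or sperm marks a control region that sets which parental copy of the neighbouring genes is read. Many imprinted genes are abundant in the embryo, above all in tissues that come from mesoderm and neural crest, and fall after birth. As a broad rule of mouse genetics, paternally expressed genes such as Dlk1 and Peg3 promote growth, and maternally expressed genes such as Cdkn1c and Phlda2 restrain it.

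The labelled layers matched their markers. Of 20 epithelial markers, all were at least 2-fold lower in mesenchyme than in ectoderm in KO and in WT, with a sum of 37.9 TPM in KO mesenchyme and 3392 TPM in KO ectoderm, and of 36.2 TPM in WT mesenchyme and 3939 TPM in WT ectoderm. Esrp1 itself was at 62.9 TPM in KO ectoderm and 170 TPM in WT ectoderm, and the deleted part of Esrp1 is not given in the labels. The 20 mesenchyme markers added to 875 TPM in KO ectoderm and 430 TPM in WT ectoderm, and 15 of them were at least 1.5-fold higher in KO ectoderm and none lower. They added to 3200 TPM in KO mesenchyme and 4374 TPM in WT mesenchyme, where 10 were lower and none higher. The columns also differed in kind of index, with 2 barcodes in 2 of 4 libraries of KO ectoderm, 1 of WT ectoderm, 2 of KO mesenchyme and 0 of WT mesenchyme, and this cannot be told apart from genotype in a table of group values.

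The promoters below belong to 4 members with higher values in KO ectoderm than in WT ectoderm (Dlk1, Asb4, Magel2 and Zim1) and, for contrast, to Plagl1, whose start is rich in CpG, the pair of bases that carries imprinting methylation. Each window runs from 250 bases before to 50 bases after a gene start, 5′ to 3′ on the gene's strand, from RefSeq on GRCm38.p6, and the capitals mark each CpG. The windows are chr12:109452573-109452872 (plus) for Dlk1, chr6:5383136-5383435 (plus) for Asb4, chr7:62376729-62377028 (plus) for Magel2, chr7:6696383-6696682 (minus) for Zim1 and chr10:13090582-13090881 (plus) for Plagl1.
Dlk1: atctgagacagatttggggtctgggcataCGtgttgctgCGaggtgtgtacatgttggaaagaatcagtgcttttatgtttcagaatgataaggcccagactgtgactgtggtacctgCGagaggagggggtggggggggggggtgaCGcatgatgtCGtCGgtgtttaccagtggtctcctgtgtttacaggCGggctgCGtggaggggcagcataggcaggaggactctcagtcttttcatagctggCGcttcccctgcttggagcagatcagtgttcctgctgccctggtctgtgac
Asb4: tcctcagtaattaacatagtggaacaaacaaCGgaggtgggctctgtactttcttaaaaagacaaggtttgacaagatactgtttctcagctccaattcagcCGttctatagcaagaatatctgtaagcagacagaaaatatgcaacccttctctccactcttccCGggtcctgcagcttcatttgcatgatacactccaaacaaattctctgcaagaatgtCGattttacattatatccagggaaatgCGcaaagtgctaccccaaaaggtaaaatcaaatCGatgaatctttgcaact
Magel2: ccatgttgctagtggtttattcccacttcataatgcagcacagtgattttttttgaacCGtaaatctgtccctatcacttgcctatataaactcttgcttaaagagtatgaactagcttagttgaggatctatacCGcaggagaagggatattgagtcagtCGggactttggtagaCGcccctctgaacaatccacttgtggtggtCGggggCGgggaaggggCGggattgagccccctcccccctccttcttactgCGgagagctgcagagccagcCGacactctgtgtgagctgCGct
Zim1: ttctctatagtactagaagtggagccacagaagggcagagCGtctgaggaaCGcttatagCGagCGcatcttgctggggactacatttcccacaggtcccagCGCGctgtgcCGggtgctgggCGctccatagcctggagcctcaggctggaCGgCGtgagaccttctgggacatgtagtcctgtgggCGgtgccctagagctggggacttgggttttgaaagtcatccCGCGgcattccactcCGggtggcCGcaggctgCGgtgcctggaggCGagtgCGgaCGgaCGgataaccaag
Plagl1: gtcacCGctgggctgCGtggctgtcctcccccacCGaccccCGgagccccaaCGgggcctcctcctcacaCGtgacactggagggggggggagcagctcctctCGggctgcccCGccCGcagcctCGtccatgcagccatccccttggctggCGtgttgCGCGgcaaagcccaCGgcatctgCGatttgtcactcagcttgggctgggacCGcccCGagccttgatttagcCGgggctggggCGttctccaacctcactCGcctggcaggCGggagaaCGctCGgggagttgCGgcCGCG

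These windows held 9 CpG in Dlk1, 6 in Asb4, 10 in Magel2, 20 in Zim1 and 26 in Plagl1, against a median of 7 over all 32851 promoter windows of the same table. Of the 5 windows shown, only that of Asb4 was below that median. The motif TGCCGC, bound in its methylated form by Zfp57, a zinc finger protein that keeps imprints, was searched on both strands. It occurred in 9 of 37 windows (24.3%) of the 23 members with a row and a window, and in 11.6% of all windows. These 37 windows had a median of 13 CpG, against 7 over all windows. The motif itself holds a CpG, so the shares are not matched for CpG content. Members with several starts have several windows, and those of Mest, of Gnas and of Peg3 with Usp29 overlap in part. The Mest windows that hold the motif overlap almost fully. Of the windows shown, those of Zim1 and Plagl1 held the motif, 1 copy each, and the other members with it were Mest, Nap1l5, Nnat, Zdbf2, Snrpn and Grb10. A match is a run of letters and not a bound site.

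Level differed over several orders of magnitude among the members. Gnas, which encodes the stimulatory G protein alpha subunit and, from other first exons, further products, had the highest value of the 29 in 3 of the 4 groups, with 1155 TPM in KO ectoderm, 1023 TPM in WT ectoderm, 829 TPM in KO mesenchyme and 1471 TPM in WT mesenchyme. Which of these products its value covers is not given, so the paternally and maternally read ones cannot be told apart. Nnat, a small membrane protein of the endoplasmic reticulum, came next and led in KO mesenchyme, with 779 TPM in KO ectoderm, 617 TPM in WT ectoderm, 1011 TPM in KO mesenchyme and 1137 TPM in WT mesenchyme. Nnat lies within Blcap on the opposite strand, and whether reads were assigned by strand is not given in the sources used here. Mest and Grb10, an enzyme-like protein named for mesoderm and an adaptor that dampens insulin and IGF receptor signals, followed at 355 to 894 TPM over the 4 groups. At the other end, Slc22a3, a transporter of organic cations, was between 0.12 and 0.23 TPM in all groups, and Rtl1 between 0.28 and 1.74 TPM. Rtl1, a retrotransposon-derived gene needed in placenta, had 2 rows with identical values, and 1 was used.

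**Figure D1:**
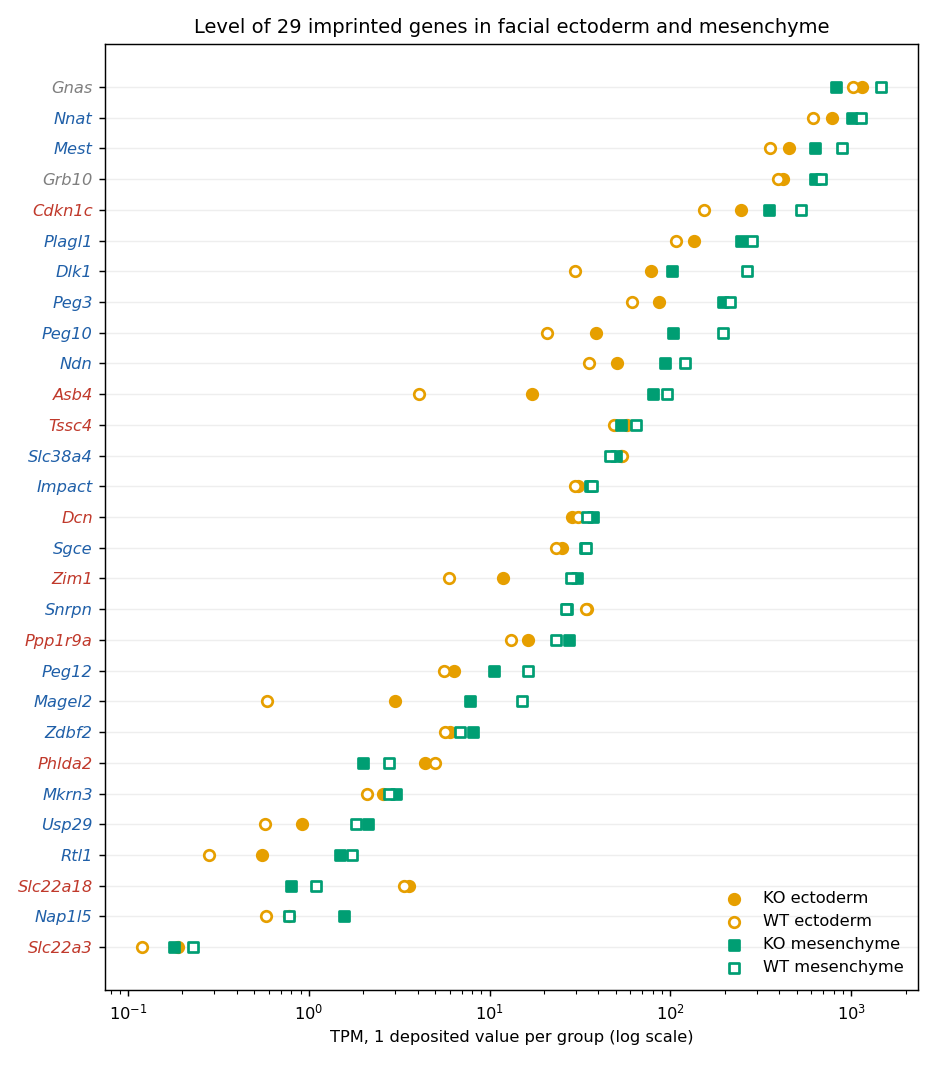
TPM of the 29 imprinted genes with a row (horizontal log axis), with circles for ectoderm and squares for mesenchyme, filled for KO and open for WT; each point is the 1 value deposited for that group, and blue, red and grey names mark paternally expressed, maternally expressed and tissue-dependent genes. Gnas (up to 1471 TPM) and Nnat (up to 1137 TPM) lie farthest right, Slc22a3 stays below 0.3 TPM, and the open symbols lie farthest apart in Asb4 and Magel2.

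Summed over the 29 genes, the members made up 0.392% of the TPM of KO ectoderm, 0.334% of WT ectoderm, 0.471% of KO mesenchyme and 0.642% of WT mesenchyme. The sum for the paternally expressed genes was 1786 TPM in KO ectoderm, 1383 TPM in WT ectoderm, 2560 TPM in KO mesenchyme and 3294 TPM in WT mesenchyme. The sum for the maternally expressed genes was 386 TPM in KO ectoderm, 265 TPM in WT ectoderm, 583 TPM in KO mesenchyme and 779 TPM in WT mesenchyme. Paternal genes thus summed to 4.63 times the maternal ones in KO ectoderm, 5.22 times in WT ectoderm, 4.39 times in KO mesenchyme and 4.23 times in WT mesenchyme. These sums rest on few genes, since Nnat and Mest gave 61.6% to 70.3% of the paternal sum and Cdkn1c 58.0% to 67.8% of the maternal sum.

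The layers of WT embryos were compared first, because they show where in the face these genes are read. Of 27 measured members 12 (44.4%) stood 2-fold or more above their WT ectoderm value in WT mesenchyme, against 12.1% of all genes measured, and 1 (3.7%) was lower, compared with 6.88%. The median log2 ratio of the members was 0.84, and that of all genes 0.15. In bulk tissue fewer cells of a type and less RNA per cell cannot be told apart. After quantile normalization the calls over all genes were 1356 higher and 1172 lower, compared with 1718 and 980 as deposited, and the members' median log2 ratio was 0.74.

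Asb4, the substrate-binding part of a ubiquitin ligase, stood highest with 96.1 TPM in WT mesenchyme and 4.07 TPM in WT ectoderm, a log2 ratio of 4.26. Its gene lies on chromosome 6 (5383386 to 5433022, plus strand, GRCm38). Magel2 and Ndn, proteins of the MAGE family from the region that is lost in Prader-Willi syndrome in humans, followed it in part. Magel2 was at 15.0 TPM in WT mesenchyme and 0.59 TPM in WT ectoderm (3.33), and Ndn at 120 TPM in WT mesenchyme and 35.6 TPM in WT ectoderm (1.73). Magel2 counted as measured only through its mesenchyme value, and its log2 ratio ran from 3.10 to 4.45 under other processing settings. Peg10, a gene of retrotransposon origin, was at 195 TPM in WT mesenchyme and 20.8 TPM in WT ectoderm (3.17). Dlk1, a membrane protein related to Notch ligands that holds progenitor cells undifferentiated, was at 264 TPM in WT mesenchyme and 29.5 TPM in WT ectoderm (3.12). These 4 genes with log2 ratios above 3 comprise Magel2, Peg10 and Dlk1 of the paternally expressed class and Asb4 of the maternally expressed class.

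A second tier of members was 2.14-fold to 4.21-fold higher in WT mesenchyme, on TPM plus 1. The zinc finger genes Zim1 and Peg3, neighbours on chromosome 7, were at 28.2 and 212 TPM in WT mesenchyme and at 5.94 and 61.1 TPM in WT ectoderm. Cdkn1c, the cell cycle inhibitor p57, was at 528 TPM in WT mesenchyme and 154 TPM in WT ectoderm, a log2 ratio of 1.77. Plagl1, a zinc finger transcription factor of growth control, was at 283 TPM in WT mesenchyme and 107 TPM in WT ectoderm (1.39). Peg12, of the Frat family that binds the kinase Gsk3 in Wnt signalling, was at 16.3 TPM in WT mesenchyme and 5.62 TPM in WT ectoderm (1.39). Mest was at 894 TPM in WT mesenchyme and 355 TPM in WT ectoderm (1.33), and Rtl1 at 1.74 TPM in WT mesenchyme and 0.28 TPM in WT ectoderm (1.10). Rtl1 counted as measured only through its mesenchyme value, and was at 0.95 after centring on the median of all genes.

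The single member lower in WT mesenchyme was Slc22a18, a transporter of the Kcnq1 cluster, with 1.09 TPM in WT mesenchyme and 3.38 TPM in WT ectoderm, a log2 ratio of -1.07. Its neighbour Phlda2, which restrains placental growth, had the next lowest ratio, with 2.79 TPM in WT mesenchyme and 4.98 TPM in WT ectoderm (-0.66). Snrpn, a spliceosome protein of neurons, and Slc38a4, an amino acid carrier, were also below 0, at log2 ratios of -0.36 and -0.21. The remaining measured members were above 0 but within 2-fold, at log2 ratios from 0.16 in Dcn to 0.88 in Nnat. Usp29 (0.84) was past 2-fold with a pseudocount of 0.1 TPM (1.52), and counted as measured only through its mesenchyme value.

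**Figure D2:**
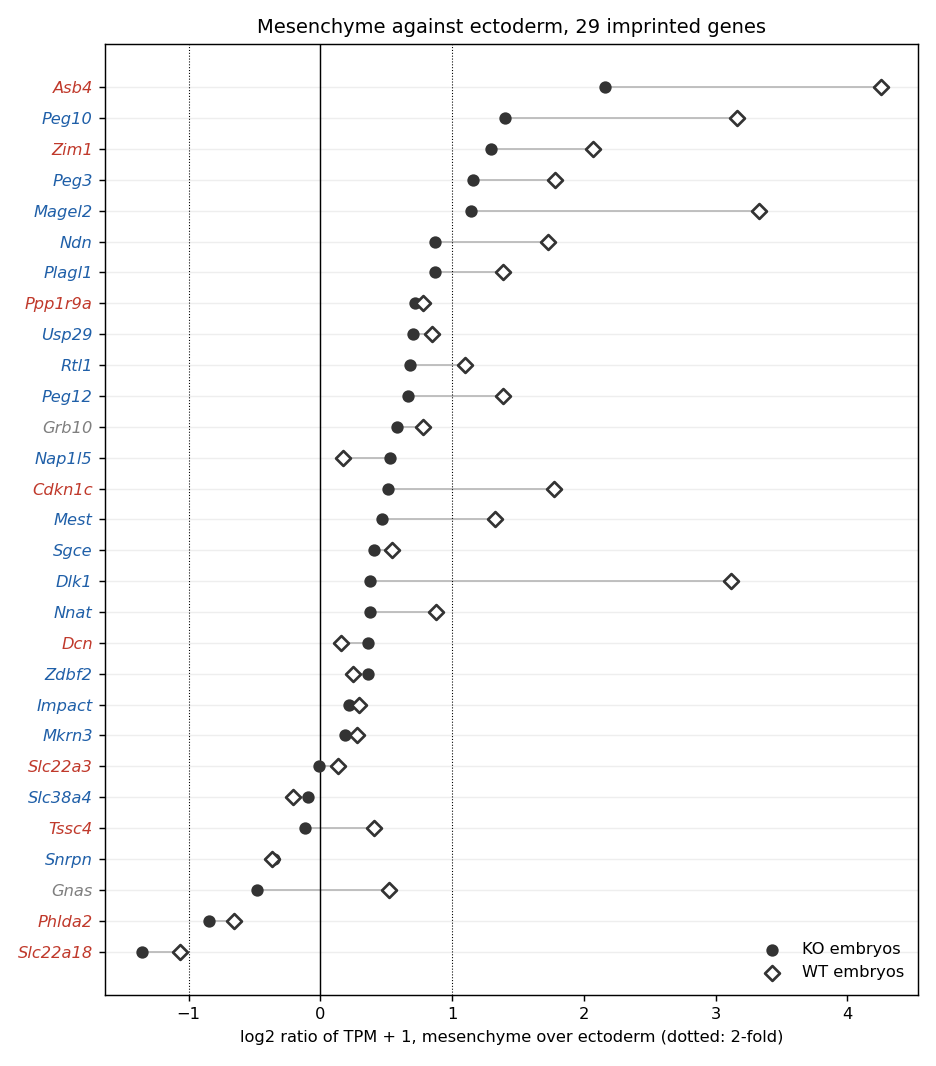
Log2 ratio of TPM plus 1, mesenchyme over ectoderm (horizontal axis), for 29 imprinted genes, with filled circles for KO embryos and open diamonds for WT embryos; dotted lines mark 2-fold, and name colours mark the expressed allele. Asb4 lies farthest right in both genotypes (2.16 in KO and 4.26 in WT), and the widest gap between the symbols is that of Dlk1 (0.38 in KO and 3.12 in WT).

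Between the KO layers fewer members were apart. Of 28 measured members 5 (17.9%) were at least 2-fold higher in KO mesenchyme than in KO ectoderm, compared with 6.88% of all genes, and 1 (3.57%) was lower, compared with 9.06%. The 5 were Asb4, Peg10, Zim1, Peg3 and Magel2, with log2 ratios of 2.16, 1.40, 1.29, 1.16 and 1.14. Those of Ndn and Plagl1, past 2-fold in WT, were both 0.87 in KO, and 1.13 and 1.07 when 10.9% of WT mesenchyme RNA was taken out of KO ectoderm in a calculation given with the KO ectoderm values, which left 7 members higher. The lower 1 was again Slc22a18 (-1.35), at 0.80 TPM in KO mesenchyme and 3.59 TPM in KO ectoderm. Slc22a18 counted as measured there only through its ectoderm value. Dlk1 was at 101.5 TPM in KO mesenchyme and 77.9 TPM in KO ectoderm, a log2 ratio of 0.38, and Cdkn1c at 352 TPM in KO mesenchyme and 246 TPM in KO ectoderm, a log2 ratio of 0.52. Gnas was lower in KO mesenchyme than in KO ectoderm by a log2 ratio of -0.48, within 2-fold, while its ratio in WT was 0.52.

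In KO ectoderm 6 of 25 measured members (24.0%) were at least 1.5-fold above their WT ectoderm value, where 4.92% of all genes were, and none was lower, where 0.452% of all genes were. With quantile normalization 468 genes were higher and 131 lower in all, in place of 686 and 63. The members' median log2 ratio was 0.24 and that of all genes 0.05. Asb4 was at 17.1 TPM in KO ectoderm and 4.07 TPM in WT ectoderm, a log2 ratio of 1.83. Dlk1 was at 77.9 TPM in KO ectoderm and 29.5 TPM in WT ectoderm (1.37). Magel2 was at 2.99 TPM in KO ectoderm and 0.59 TPM in WT ectoderm (1.33), and passed the limit on low values only through its KO value. Each of these is among the members with the largest excess in WT mesenchyme. Both comparisons use the same WT ectoderm column, so they are not independent of each other.

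The other 3 had smaller differences. Zim1 was at 11.8 TPM in KO ectoderm and 5.94 TPM in WT ectoderm (0.89). Peg10 was at 38.7 TPM in KO ectoderm and 20.8 TPM in WT ectoderm (0.86). Cdkn1c was at 246 TPM in KO ectoderm and 154 TPM in WT ectoderm (0.67). Cdkn1c was the most abundant of the 6 in both genotypes. Just below 1.5-fold were Ndn, at 50.6 TPM in KO ectoderm and 35.6 TPM in WT ectoderm (0.50), and Peg3, at 86.5 TPM in KO ectoderm and 61.1 TPM in WT ectoderm (0.49). Mest was at 455 TPM in KO ectoderm and 355 TPM in WT ectoderm (0.36), and Plagl1 at 135 TPM in KO ectoderm and 107 TPM in WT ectoderm (0.32). Near or below these were Nnat (0.34), Peg12 (6.32 TPM in KO ectoderm and 5.62 TPM in WT ectoderm) and Ppp1r9a (16.3 TPM in KO ectoderm and 13.2 TPM in WT ectoderm). The lowest ratios of measured members were those of Phlda2 (-0.15), Dcn (-0.09), a proteoglycan of collagen matrix, and Slc38a4 (-0.01), so 22 of the 25 were above 0.

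Markers of several other cell types were also higher in KO ectoderm. Besides the 15 of 20 mesenchyme markers, 13 of 13 measured endothelial markers were at least 1.5-fold higher in KO ectoderm, 10 of 11 skeletal muscle markers, 4 of 10 cartilage and bone markers, 7 of 13 neuron markers and 4 of 9 macrophage markers. Over all genes 4.92% were. Some of these markers counted as measured only through their KO value. Examples are Kdr, Myod1, Matn4 and Nefl, at 0.64, 0.50, 0.36 and 0.60 TPM in WT ectoderm. The endothelial, muscle, cartilage and neuron counts are thus partly set by the limit on low values. Red blood cell markers differed from these, with 1 of 10 higher in KO ectoderm and a median log2 ratio of 0.03, though between the WT layers all 10 were past 2-fold toward mesenchyme. No marker of these lists was at 0 in any group. The endothelial markers summed to 71.3 TPM in KO ectoderm and 25.6 TPM in WT ectoderm, the muscle markers to 110 TPM in KO ectoderm and 39.05 TPM in WT ectoderm, and the neuron markers to 178 TPM in KO ectoderm and 131 TPM in WT ectoderm. Epithelial markers summed to 3392 TPM in KO ectoderm and 3939 TPM in WT ectoderm.

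For each gene the gain, KO minus WT ectoderm, was expressed as a percent of the excess of WT mesenchyme over WT ectoderm. Over the 20 mesenchyme markers this was 10.9% at the median, with an upper quartile of 12.2%, and ran from 6.36% to 26.4%. The top value was that of Msx1 alone, and the next was Postn at 15.5%. Over the 12 members higher in WT mesenchyme the median was 17.3%, with a range of 6.55% to 26.4%. Zim1 stood at 26.4%, just above Msx1, and Cdkn1c at 24.6% and Dlk1 at 20.7%, above every marker but Msx1. Asb4 at 14.1%, Peg10 at 10.2% and Peg12 at 6.55% were the lowest 3 of the 12. When 10.9% of WT mesenchyme RNA was taken out of KO ectoderm in the calculation, the log2 ratio was 0.88 for Dlk1, 0.72 for Asb4, 0.66 for Magel2 and 0.64 for Zim1, all past 1.5-fold at that share. It was 0.46 for Cdkn1c and -0.09 for Peg10, so these 2 were not, and Cdkn1c was within 1.5-fold also after the GC trend was subtracted (0.51). That calculation left 4 of the members higher, beside 2.6% of all genes. With the upper quartile of 12.2%, a share chosen after seeing the data, 2 of 24 were higher, beside 2.49% of all genes. These were Dlk1 (0.80) and Zim1 (0.61), while Asb4 (0.49) was within 1.5-fold and Magel2 was no longer measured. Both calculations used WT mesenchyme, although 10 of the 20 markers were at least 1.5-fold lower in KO mesenchyme. They were not repeated with KO mesenchyme values, so which members would then stay past 1.5-fold was not tested.

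**Figure D3:**
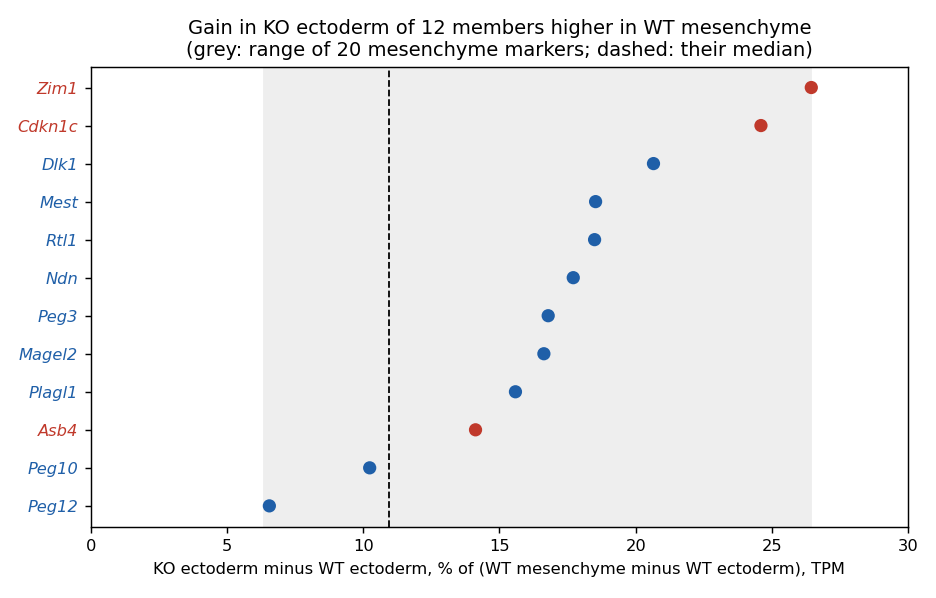
Gain in KO ectoderm as a percent of the excess of WT mesenchyme over WT ectoderm, both in TPM (horizontal axis), for the 12 members at least 2-fold higher in WT mesenchyme; the grey band is the range of 20 mesenchyme markers (6.36% to 26.4%, the top being Msx1 alone, with the next at 15.5%) and the dashed line their median (10.9%). All but Peg10 and Peg12 lie right of the dashed line, and blue and red mark paternally and maternally expressed genes.

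In KO mesenchyme the members passed 1.5-fold about as often as other genes. Of 27 measured, 4 (14.8%) were at least 1.5-fold lower than in WT mesenchyme, compared with 13.4% of all genes, and none was higher, compared with 2.33%. This share is near the background and is no result about imprinted genes as a set. The median log2 ratio was -0.14 for the members and -0.12 for all genes. Over all genes 332 were higher and 1902 lower as deposited, 590 and 1164 after centring on the median, 638 and 969 after quantile normalization, and 684 and 300 after the trend with transcript GC content was subtracted. Genes with a transcript GC content of 55.3% or more had a median log2 ratio of -0.52, and those with 43.7% or less 0.16.

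Dlk1 had the largest difference, with 101.5 TPM in KO mesenchyme and 264 TPM in WT mesenchyme, a log2 ratio of -1.37. Peg10 was at 104 TPM in KO mesenchyme and 195 TPM in WT mesenchyme (-0.91). Magel2 was at 7.80 TPM in KO mesenchyme and 15.0 TPM in WT mesenchyme (-0.86), and Gnas at 829 TPM in KO mesenchyme and 1471 TPM in WT mesenchyme (-0.83). Of these, Gnas is the only gene not among the 12 higher in WT mesenchyme. After the GC trend was subtracted Dlk1 stood at -1.0 and Peg10 at -0.82, past 1.5-fold, and Magel2 at -0.35 and Gnas at -0.30, within it. The transcript GC content was 53.6% for Dlk1, 47.2% for Peg10, 57.6% for Magel2 and 57.8% for Gnas.

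Cdkn1c (352 TPM in KO mesenchyme and 528 TPM in WT mesenchyme, -0.58) and Peg12 (10.6 TPM in KO mesenchyme and 16.3 TPM in WT mesenchyme, -0.57) lay just inside 1.5-fold. Cdkn1c passed it when the columns were rescaled to equal sums (-0.60), after quantile normalization (-0.59) and with a pseudocount of 0.1 TPM (-0.59), and Peg12 with that pseudocount (-0.61). After the GC trend was subtracted neither Cdkn1c nor Peg12 was past 1.5-fold. Their transcript GC content was 59.4% and 57.0%. Genes with 55.3% or more had a median log2 ratio of -0.52 in KO against WT mesenchyme. Mest was at 630 TPM in KO mesenchyme and 894 TPM in WT mesenchyme (-0.50, and -0.60 after quantile normalization). Ndn was at 93.2 TPM in KO mesenchyme and 120 TPM in WT mesenchyme (-0.37), and Plagl1 at 247 TPM in KO mesenchyme and 283 TPM in WT mesenchyme (-0.20). Nap1l5, of the nucleosome assembly protein family, counted as measured only through its KO value, and was at 1.57 TPM in KO mesenchyme and 0.78 TPM in WT mesenchyme (0.53, and 0.65 after centring on the median of all genes). In ectoderm Nap1l5 was at 0.78 TPM in KO and 0.58 TPM in WT. Phlda2 was at 1.99 TPM in KO mesenchyme and 2.79 TPM in WT mesenchyme (-0.34), and at 4.38 TPM in KO ectoderm and 4.98 TPM in WT ectoderm.

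Among markers, 10 of 20 of mesenchyme, 7 of 12 of cartilage and bone, 5 of 15 of endothelium and 4 of 14 of skeletal muscle were also at least 1.5-fold lower in KO mesenchyme. Of 14 neuron markers 7 were higher, with a sum of 518 TPM in KO mesenchyme and 343 TPM in WT mesenchyme. Their part in the values of the imprinted genes was not tested.

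**Figure D4:**
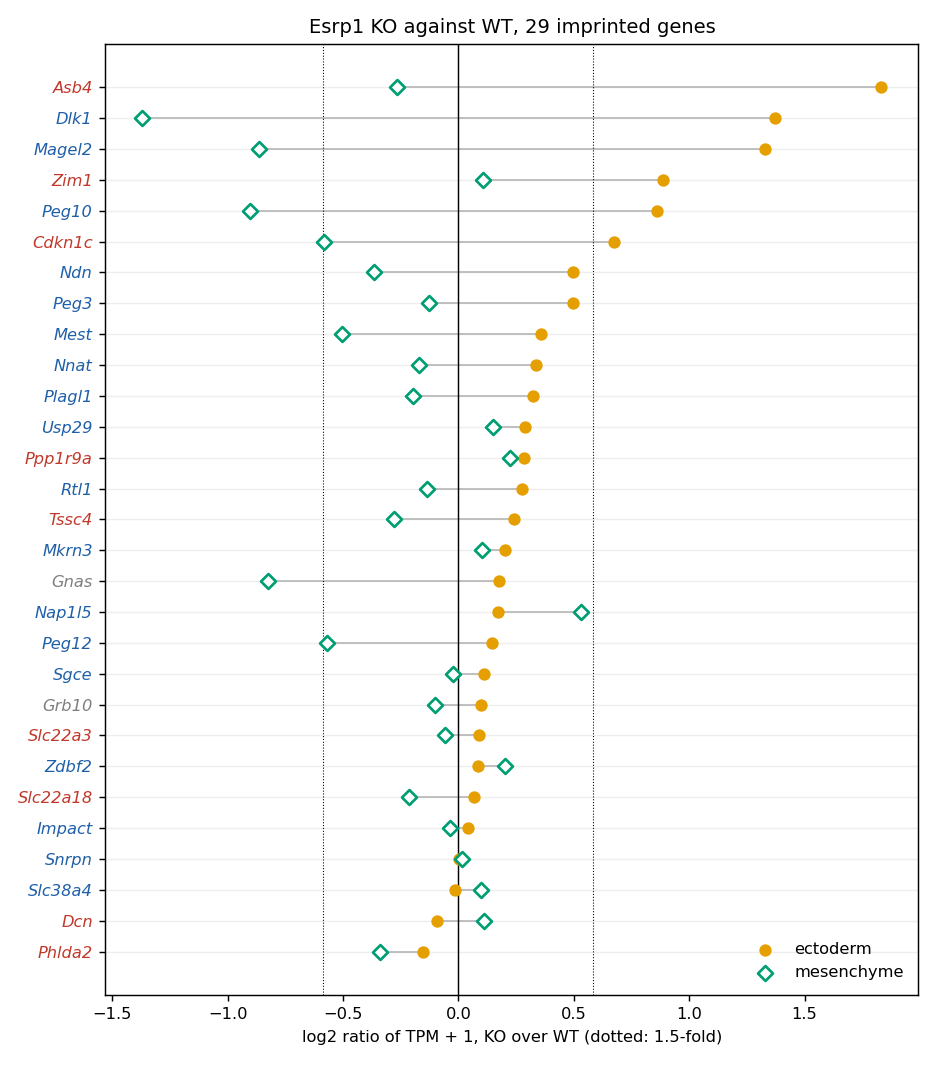
Log2 ratio of TPM plus 1, KO over WT (horizontal axis), for 29 imprinted genes, with filled circles for ectoderm and open diamonds for mesenchyme; dotted lines mark 1.5-fold. Dlk1 (1.37 in ectoderm and -1.37 in mesenchyme), Magel2 and Peg10 are past the lines in opposite directions, and Asb4, Zim1 and Cdkn1c in ectoderm alone.

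The KO effects of the layers were then set against each other, as the ectoderm log2 ratio minus the mesenchyme log2 ratio. Of 27 measured members 6 (22.2%) were at least 2-fold above 0, compared with 7.34% of all genes, and none was as far below, compared with 0.593%. Among markers, 17 of 20 of mesenchyme, 13 of 15 of endothelium, 9 of 13 of skeletal muscle and 9 of 12 of cartilage and bone were also that far above. None of the 20 epithelial, 14 neuron, 11 macrophage and 10 red blood cell markers was. Over all genes 1052 were above and 85 below, against 587 and 150 after centring, 479 and 179 after quantile normalization, and 312 and 175 with the GC trend subtracted. The difference was 2.74 in Dlk1, 2.19 in Magel2, 2.10 in Asb4, 1.77 in Peg10, 1.26 in Cdkn1c and 1.0 in Gnas. As deposited, both layers contributed in Dlk1, Magel2 and Peg10, in Asb4 nearly all of the difference came from ectoderm, and in Gnas from mesenchyme. The ectoderm ratio of Peg10 was -0.09 after the mesenchyme share was taken out of KO ectoderm. The mesenchyme ratio of Magel2 was -0.35 after the GC trend was subtracted, and Magel2 counted as measured in ectoderm only through its KO value. After the GC trend was subtracted Cdkn1c (0.52) and Gnas (0.34) were within 2-fold, and after the mesenchyme share was taken out of KO ectoderm Peg10 (0.81), Asb4 (0.99) and Gnas (0.95) were, as they were at the upper quartile share. Gnas was within it also after rescaling (0.96) and centring (0.81). Dlk1 and Magel2 stayed past 2-fold in each of the 10 alternatives.

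Snrpn, Slc38a4 and Impact were close to level between genotypes. Snrpn was at 34.4 TPM in KO ectoderm, 34.3 TPM in WT ectoderm, 26.7 TPM in KO mesenchyme and 26.4 TPM in WT mesenchyme. Slc38a4 was at 53.1 TPM in KO ectoderm, 53.7 TPM in WT ectoderm, 49.7 TPM in KO mesenchyme and 46.4 TPM in WT mesenchyme. Impact, a regulator of the stress kinase Gcn2, was at 30.7 TPM in KO ectoderm, 29.8 TPM in WT ectoderm, 35.8 TPM in KO mesenchyme and 36.8 TPM in WT mesenchyme. For these 3 genes the KO and WT values differed by less than 10% in each layer. Dcn ran from 28.7 TPM in KO ectoderm to 37.2 TPM in KO mesenchyme, Sgce, a sarcoglycan, from 23.2 TPM in WT ectoderm to 34.3 TPM in WT mesenchyme, and Zdbf2, a zinc finger gene, from 5.66 TPM in WT ectoderm to 8.08 TPM in KO mesenchyme. Tssc4 was at 57.6 TPM in KO ectoderm, 48.7 TPM in WT ectoderm, 53.1 TPM in KO mesenchyme and 64.7 TPM in WT mesenchyme. Grb10 was near level between genotypes and higher in mesenchyme, within 2-fold. It was at 422 TPM in KO ectoderm, 394 TPM in WT ectoderm, 631 TPM in KO mesenchyme and 679 TPM in WT mesenchyme. The rows of Tssc4, Mest and Nap1l5 overlap those of Trpm5, Copg2 and Herc3 on the other strand, and reads of such pairs could be mixed.

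Paternally and maternally expressed members were compared over the same values, and the shares over all genes given above hold for each comparison. In WT mesenchyme against WT ectoderm 9 of 17 measured paternal genes (52.9%) were higher and none lower, and 3 of 8 maternal genes (37.5%) were higher and 1 lower, with median log2 ratios of 1.10 and 0.59. Of the 9, Magel2 and Rtl1 counted as measured only through their mesenchyme value. In KO mesenchyme against KO ectoderm 3 of 18 paternal genes were higher and none lower. Of 8 maternal genes 2 were higher and 1 lower (Slc22a18), and the medians were 0.50 and 0.44. In KO ectoderm against WT ectoderm 3 of 15 paternal genes (Dlk1, Magel2 and Peg10) and 3 of 8 maternal genes (Asb4, Zim1 and Cdkn1c) were higher, with medians of 0.32 and 0.26. In KO mesenchyme against WT mesenchyme 3 of 18 paternal genes were lower (Dlk1, Peg10 and Magel2) and none of 7 maternal genes, with medians of -0.13 and -0.27. The paternal share, 16.7%, is near the 13.4% of all genes that were lower, and nothing is read from the counts of either class there. The spread within each class was far wider than the gap between the medians in every comparison.

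The gap between the classes depended on which genes were counted. For 4 maternal members, Dcn, Ppp1r9a, Tssc4 and Slc22a3, the bias is known mainly from placenta. Without them the 5 maternal genes left had a median log2 ratio of 1.77 between the WT layers and 0.67 in KO ectoderm against WT ectoderm. The paternal minus the maternal median was then -0.68 and -0.35, where with all maternal genes it was 0.51 and 0.06. No direction can therefore be given for paternal against maternal genes.

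**Figure D5:**
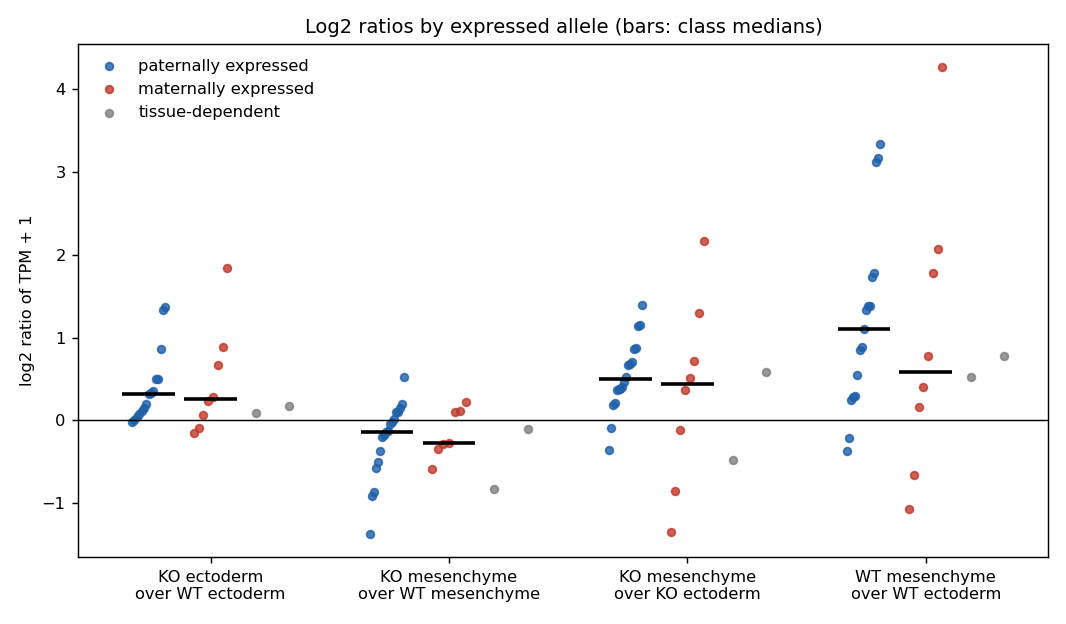
Log2 ratios of TPM plus 1 (vertical axis) of the measured members in 4 comparisons (horizontal axis), with blue points for paternally expressed, red for maternally expressed and grey for tissue-dependent genes; black bars are the medians of the first 2 classes. The classes overlap throughout, and the highest point is maternal Asb4 (4.26).

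Neighbours in a cluster often had unlike values. Sgce and Peg10 on chromosome 6 start 98 bases apart on opposite strands and are both read from the paternal copy. Between the WT layers Peg10 had a log2 ratio of 3.17 and Sgce of 0.55, and in KO mesenchyme against WT mesenchyme -0.91 and -0.02. Farther along the same cluster Ppp1r9a, a protein that ties phosphatase to actin, had 27.4 TPM in KO mesenchyme and 23.3 TPM in WT mesenchyme. Its log2 ratio was 0.78 between the WT layers, and that of Asb4 4.26. Both of these are counted as maternally expressed, for Ppp1r9a with a bias known mainly from placenta, and a gap of 218 kb lies between them.

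In the Snrpn cluster on chromosome 7, Ndn, Magel2, Mkrn3 and Peg12 follow each other with gaps of 26.7, 36.0 and 41.7 kb. Their log2 ratios between the WT layers were 1.73, 3.33, 0.28 and 1.39, and that of Snrpn, 2206 kb away, was -0.36. Mkrn3, a ubiquitin ligase, was at 3.05 TPM in KO mesenchyme, 2.77 TPM in WT mesenchyme, 2.56 TPM in KO ectoderm and 2.10 TPM in WT ectoderm, and so did not share the excess of its neighbours. The row of Snrpn overlaps that of Snurf on the same strand, and reads could be split between them.

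In the Peg3 cluster Peg3 and Usp29 start 146 bases apart on opposite strands. Usp29, of the ubiquitin protease family, was at 2.13 TPM in KO mesenchyme, 1.82 TPM in WT mesenchyme, 0.92 TPM in KO ectoderm and 0.57 TPM in WT ectoderm. Peg3 was at 194 TPM in KO mesenchyme, 212 TPM in WT mesenchyme, 86.5 TPM in KO ectoderm and 61.1 TPM in WT ectoderm. The maternally expressed Zim1, 7.44 kb from Peg3, was at 30.4 TPM in KO mesenchyme and 28.2 TPM in WT mesenchyme, and so stood slightly higher in KO mesenchyme, as Usp29 did, where Peg3 was lower. In the Dlk1 cluster on chromosome 12 Rtl1 kept 85.6% of its WT value in KO mesenchyme and Dlk1 38.5%. The Rtl1 share rests on 1.49 TPM in KO mesenchyme and 1.74 TPM in WT mesenchyme, near the limit of 1 TPM. In the Kcnq1 cluster on chromosome 7 Cdkn1c had more TPM in mesenchyme and Slc22a18 and Phlda2 more in ectoderm, in both genotypes, and a gap of 12.7 kb separates Cdkn1c from Slc22a18.

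Of 40 further imprinted genes, listed beside the members, 33 had a row. Igf2, the fetal growth factor, was at 801 TPM in KO mesenchyme, 1120 TPM in WT mesenchyme, 1212 TPM in KO ectoderm and 1272 TPM in WT ectoderm, and Cd81, a tetraspanin, had the second highest mean over the groups, at 146 to 233 TPM. Between the WT layers 3 of 26 measured (11.5%) were at least 2-fold higher in mesenchyme (Klf14, Dio3 and Qpct) and 2 were lower (Pon2 and Rasgrf1), with a median of 0.28, and the 11.5% is near the 12.1% of all genes. Klf14, Dio3 and Qpct counted as measured there only through their mesenchyme value, and Rasgrf1 only through its ectoderm value. In KO ectoderm against WT ectoderm 1 of 24 was higher (Qpct, 2.25 TPM in KO ectoderm and 0.68 TPM in WT ectoderm) and none lower, with a median of 0.06, beside 4.92% of all genes higher. Qpct counted as measured only through its KO value. The larger shares of the members in both comparisons, 44.4% and 24.0%, were thus not seen in these further imprinted genes, at 11.5% and 4.17%. In KO mesenchyme against WT mesenchyme 6 of 27 (22.2%) were lower and 0 higher, at a median log2 ratio of -0.14, beside 13.4% and 2.33% of all genes and a median of -0.12. Those 6 were Klf14 (1.16 TPM in KO mesenchyme and 3.54 TPM in WT mesenchyme), Trappc9, Osbpl5, Gab1, Cobl and Dhcr7.

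Genes that write or keep imprints were near level in ectoderm. None of 14 measured was 1.5-fold apart between KO and WT ectoderm, and their log2 ratios ran from -0.10 to 0.16. Over all genes 4.92% were higher there and 0.452% lower. Zfp57 was the 1 gene at least 2-fold higher in WT mesenchyme, at 153 TPM against 75.8 TPM in WT ectoderm (1.01). That is 7.14% of the 14, beside 12.1% of all genes. In KO mesenchyme 1 of the 14 was lower (7.14%) and 1 higher (7.14%), beside 13.4% and 2.33% of all genes. Trim28, the corepressor that Zfp57 recruits, was lower, at 428 TPM against 733 TPM in WT mesenchyme (-0.78). Hells, a chromatin remodeller, was higher, at 73.9 TPM against 48.1 TPM in WT mesenchyme (0.61). Nothing is read from these counts, and the part of the GC trend in these values was not tested. Dnmt1, the maintenance DNA methyltransferase, was at 87.4 TPM in KO mesenchyme and 131 TPM in WT mesenchyme (-0.58), just inside 1.5-fold. Its partner Uhrf1 was at 126 TPM in KO mesenchyme and 181 TPM in WT mesenchyme (-0.51). Dppa3 and Dnmt3l, genes of the germ line and early embryo, were at 0.04 TPM or less in all groups. The table holds RNA levels and no allele or methylation measurement, so which parental copy was read in these layers was not measured.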

How the data were processed

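The authors deposited 1 table of TPM per gene symbol, with a column for each of 4 groups of 4 libraries. Per the submitters' processing notes, STAR 2.5.2a and kallisto 0.43.0 were used with mm10. The tool behind the TPM values, the annotation and the way libraries were combined were not given there or in the labels. Because TPM hold no record of depth, the precision of each value is unknown. Libraries were grouped by the labelled tissue and genotype.

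Ratios are log2 of TPM plus 1, computed with Python 3.11.15 and pandas 2.3.3. Of 103 symbols in several rows, the row with the highest sum was used. The limma model planned for values per library could not be run on 1 value per group. Ratios and calls were tested on simulated data. Positions, transcript GC content (longest transcript) and gene types come from GENCODE M21 on GRCm38, matched for 99.0% of symbols. The GC trend was fitted by lowess (fraction 0.3, statsmodels 0.14.6) on genes averaging 5 TPM or more. The members and lists were chosen with earlier results of these data known. All members are named, further imprinted and imprint-keeping genes where past the size used or among the 2 highest, and others as examples. Genes named otherwise (Dnmt1, Dppa3 and Dnmt3l) were chosen after their values were seen.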

Additional observations from a re-analysis of the deposited data

How the results depend on the processing

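No paired analysis was possible because the table holds 1 value per group, and for the same reason no library could be left out. The median log2 ratio of all genes moved with quantile normalization to 0.02 in KO against WT mesenchyme, -0.02 between the WT layers and -0.04 for the difference of KO effects, where it had been -0.12, 0.15 and 0.19. Of the values of single members under an alternative, 1138 kept their side of the size used, 15 passed it and 17 lost it. Of members past the size used, 1 turned in sign, Peg10 in KO ectoderm, at -0.095 after the mesenchyme share was subtracted and at -0.28 with the upper quartile share. Among values within the size used 55 turned in sign, and their log2 ratios had been 0.52 or less from 0.

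A pseudocount of 0.1 TPM gave 1 member higher in KO mesenchyme against WT mesenchyme (Nap1l5) and 2 lower in KO mesenchyme against KO ectoderm. Among members with a mean of 5 TPM or more, the counts of lower members between the layers were 0 in WT and 0 in KO, and the median between the WT layers was 1.105. Centring on the median of all genes gave medians of 0.70 between the WT layers, -0.016 in KO mesenchyme with 1 member higher, and 0.31 for the difference of KO effects. Quantile normalization gave 0.74 between the WT layers and 0.31 for the difference of KO effects. With the GC trend subtracted, KO mesenchyme had 2 lower members and a median of -0.013, and the difference of KO effects a median of 0.19. With the mesenchyme share subtracted, the median was 0.65 between the KO layers and 0.36 for the difference of KO effects, where 3 members were past 2-fold. With the upper quartile share, chosen after seeing the data, KO ectoderm had 2 members higher and a median of 0.13, the KO layers a median of 0.67, and the difference of KO effects a median of 0.35 with 3 members past 2-fold.

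The paternal minus the maternal median was the least stable value. Between the WT layers it was 0.51, and 0.78 with the smaller pseudocount, 0.082 at 5 TPM, 0.63 with quantile normalization, 0.74 with repeated rows summed and -0.68 without placental genes. In KO ectoderm against WT ectoderm it was 0.06, and -0.15 at 5 TPM, -0.10 with the mesenchyme share subtracted, -0.13 with the upper quartile share and -0.35 without placental genes. In KO mesenchyme against WT mesenchyme it was 0.13, and -0.10 at 5 TPM, -0.025 with quantile normalization and -0.070 with the GC trend subtracted. Between the KO layers it was 0.06, and 0.16 with the smaller pseudocount and -0.18 at 5 TPM. For the difference of KO effects it was 0.10, and -0.079 at 5 TPM, 0.21 with quantile normalization, -0.11 with the mesenchyme share subtracted, -0.15 with the upper quartile share and -0.275 without placental genes. The cause was not tested. Depth limits are unknown for TPM.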
